A study of Xenopus laevis with 4 samples.

Results

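Proteasome subunit genes were examined in Xenopus laevis gastrulae injected with morpholinos against the kinase SGK1 or with a control morpholino. They were taken from the single-gene probe sets whose annotated symbol begins with psm, a letter from a to g and a digit, and whose mean signal over the 4 arrays was at least 100, with the brightest probe set standing for each gene. This gave 48 genes out of 53 with such a symbol, among 5201 genes with a tested single-gene probe set. This frog is allotetraploid and keeps many genes as a pair of homeologs, named with .L and .S, and each was counted as a gene, so the 48 genes stood for 38 symbols. They comprised 17 core genes (psma and psmb), 23 regulatory genes (psmc and psmd), 3 genes of core assembly chaperones (psmg), 3 activator genes (psme), 1 inhibitor gene (psmf1.L) and psme3ip1.S. The last encodes a partner of the psme3 protein rather than a subunit and entered through its symbol alone.

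Whole embryos from in vitro fertilized eggs were collected at stage 12, late in gastrulation, after radial injection at the 4-cell stage. The xSGK1 group received 40 ng of each of a pair of morpholinos against xSGK1, and the control group received 80 ng of a control morpholino. Morpholinos are antisense oligonucleotides that block translation or splicing of their target transcript. Each of 2 independent experiments gave 1 array of each injection on the Affymetrix Xenopus laevis genome array, so n = 2 per group, and the small number of arrays limits the precision. The labels name no strain, clutch or number of pooled embryos.

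The proteasome is the protease that degrades proteins tagged with ubiquitin. Its barrel-shaped core is built of outer alpha rings (psma genes), which gate the entry, and inner beta rings (psmb genes), some of whose subunits carry the proteolytic sites. The regulatory cap binds ubiquitin, removes it, and unfolds the substrate with a ring of ATPases (psmc genes), while its non-ATPase subunits (psmd genes) act as scaffold, ubiquitin receptors and deubiquitinase. In early embryos much of this machinery is supplied maternally, and it degrades cyclins and signalling proteins at set times.

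Signals are linear array intensities scaled per array to a trimmed mean of 500. Log2 changes were taken on signal + 16 as xSGK1 minus control, a scale that understates the change of dim genes. Levels of different probe sets cannot be set against each other, so genes are compared only by their changes. Without a term for the experiment, limma called 0 of the 48 genes (smallest adjusted p = 0.999) and 0.00% of the 9251 probe sets tested. At an unadjusted p under 0.05 it found 2 of the 48 genes, psme1.S and psma3.L, and 3.61% of all probe sets. Since each experiment held both injections, the experiment was also fitted as a replicate block. With the block limma called 4 of the 48 genes and 8.0% of all probe sets. All adjusted p-values and standard errors for injection below are from that blocked limma fit, with Benjamini-Hochberg adjustment over all 9251 probe sets. "Rose" and "fell" mean past an adjusted p of 0.05 in it. None of these calls was made without the block.

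The arrays held germ-layer markers of a whole gastrula. Of the fixed markers 7 of 7 epidermal, 7 of 7 neural, 6 of 6 mesodermal, 6 of 8 organizer and 13 of 14 endodermal genes reached a mean signal of 100, while 0 of 3 immune and 0 of 3 differentiated-tissue genes did. Summed epidermal marker signal was 8332 and 3800 in the xSGK1 arrays (experiment 1, then 2), against 12398 and 8327 in the control arrays. The endodermal sum was 10255 and 9221 in xSGK1 arrays, against 11949 and 11652 in control arrays. The neural sum was 13900 and 12310 in xSGK1 arrays, against 11493 and 11873 in control arrays. Mesodermal sums were 8529 and 6667 in xSGK1 arrays and 8531 and 9278 in control arrays, and organizer sums 2984 and 1603 in xSGK1 arrays and 2899 and 2575 in control arrays. In whole embryos fewer cells of a type and less RNA per cell cannot be told apart. The beta-actin 3' to 5' ratio, a measure of RNA quality and labelling, was 3.38 and 2.06 in the xSGK1 arrays and 3.11 and 2.24 in the control arrays, and was lower in experiment 2 with either injection. The GAPDH ratio was 17.7 and 15.6 in the xSGK1 arrays and 16.6 and 16.4 in the control arrays. The part of these differences in the results below was not tested.

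In xSGK1 embryos 3 proteasome genes fell and 1 rose. The alpha-ring genes psma6.S and psma3.L and the core chaperone gene psmg2.L were the ones that fell. The activator gene psme1.S rose, with a signal ratio of 2.12 in experiment 1 and 2.09 in experiment 2. This gene passed the signal filter through the xSGK1 arrays alone, so its rise was a condition of its being listed. The share of all probe sets that fell was 3.91%, and the share that rose was 4.09%. Both xSGK1 arrays lay below both controls for 6 of the 48 genes, against 13.8% of all probe sets, and above both for 6, against 16.3%. The share of the 48 genes that fell was 6.25%, on 3 genes, and its difference from that of all probe sets was not tested. With quantile normalization the blocked fit gave 1 fall among the 48 genes and 279 among all 9251 probe sets. The shares that rose or were without overlap lay near or below those of all probe sets. The median log2 change of the 48 genes was -0.02, and that of all probe sets tested was 0.04.

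**Figure D1:**
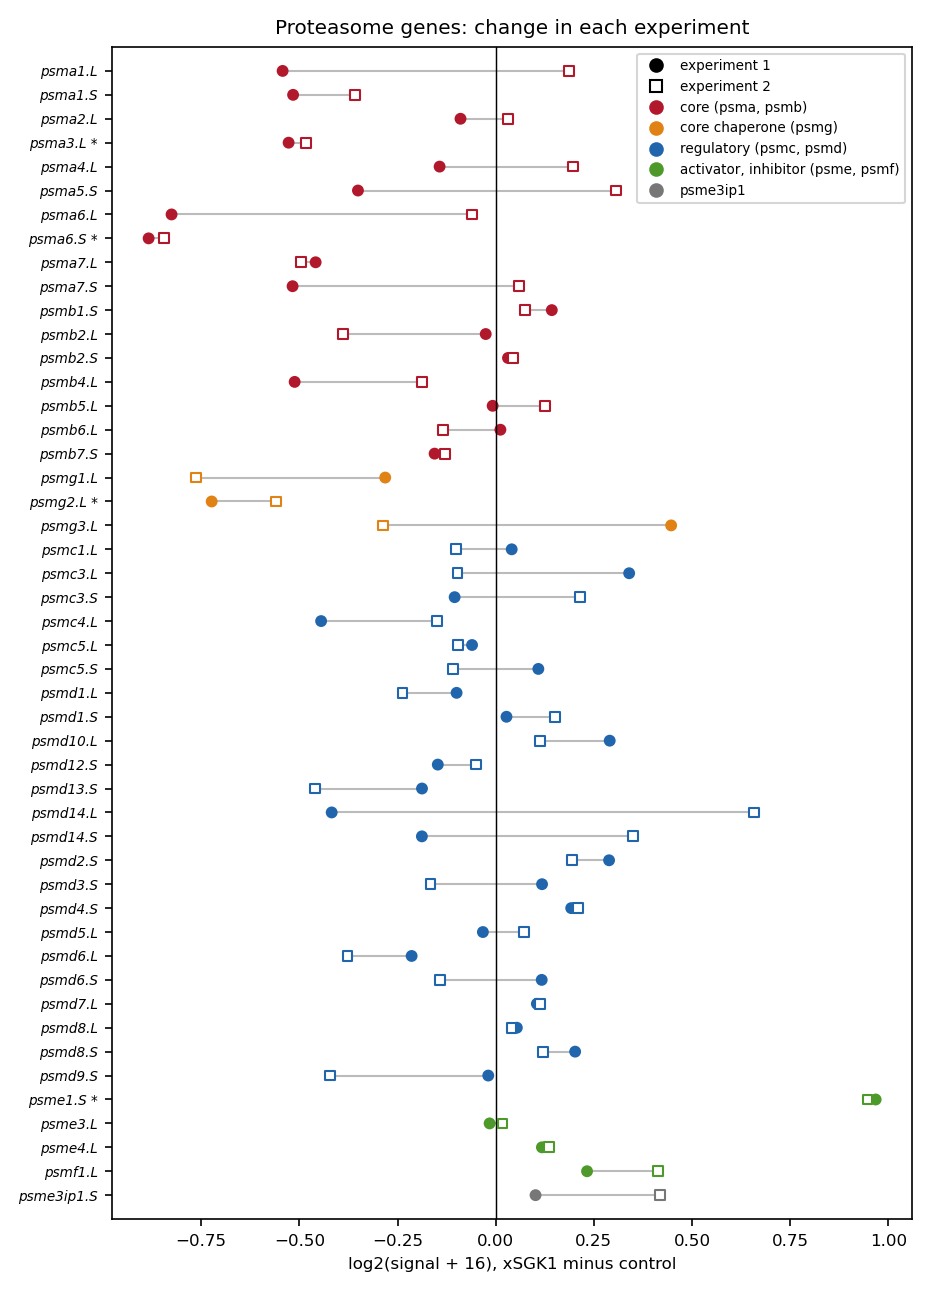
Log2 change of signal + 16 (xSGK1 minus control, x axis) of the 48 proteasome genes in experiment 1 (filled circles) and experiment 2 (open squares), 1 gene per row, coloured by class; an asterisk marks the 4 genes with an adjusted p under 0.05 once limma took the experiment into account. Several alpha-ring genes lie left of 0 in experiment 1 and near or right of it in experiment 2, while psma3.L, psma6.S and psma7.L lie left of 0 by similar amounts in both.

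Among the alpha-ring genes, psma6.S (gene ID 495277) had signals of 597 in experiment 1 and 393 in experiment 2 with xSGK1 morpholinos, against 1115 and 719 with the control morpholino. Both xSGK1 arrays were below both controls, and within each experiment the xSGK1 signal was 0.535 and 0.547 of the control signal. It fell by 0.86 on the log2 scale (SE 0.14, limma adjusted p = 0.0287). Its level also differed between the experiments, so the range within a group was wide. The probe set of psma3.L (gene ID 379935) read 2023 and 2040 in xSGK1 embryos, against 2923 and 2859 in controls. Here the arrays of each group were close together and the groups did not overlap. The gene fell by 0.51 on the log2 scale (SE 0.11, limma adjusted p = 0.0458). The call was lost with quantile normalization, without the filter and without the variance trend (limma adjusted p = 0.0628, 0.0544 and 0.0983).

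Another alpha-ring gene, psma7.L, showed similar ratios in both experiments without passing. Its signals were 1357 and 876 in xSGK1 arrays, against 1871 and 1241 in control arrays, and the log2 change was -0.48 (SE 0.13, limma adjusted p = 0.0711). The xSGK1 array of experiment 1 was above the control array of experiment 2, so the groups overlapped. For psma1.S the signals were 486 and 365 in xSGK1 arrays and 702 and 472 in control arrays, a log2 change of -0.44 (SE 0.15, limma adjusted p = 0.125). The signal of psma5.S was 1367 and 1219 in xSGK1 embryos, against 1748 and 982 in controls, so xSGK1 was lower in experiment 1 and higher in experiment 2. A second psma5.S probe set that passed the filter, 897 in mean signal, gave a log2 change of -0.19 with the same split. The signal of psma2.L was 2023 and 1850 in xSGK1 arrays, against 2154 and 1809 in controls.

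Of the 7 beta-ring genes, which include those of the catalytic subunits, limma called 0, where 8.0% of all probe sets were called. The gene psmb5.L, whose product carries the chymotrypsin-like activity, had signals of 1970 and 2646 in xSGK1 arrays and 1981 and 2426 in control arrays. The caspase-like subunit gene psmb6.L had 1527 and 1265 in xSGK1 arrays, against 1514 and 1391 in control arrays. The trypsin-like subunit gene psmb7.S had 922 and 825 in xSGK1 arrays and 1029 and 903 in control arrays. In all 3 genes the arrays of the groups overlapped, and their log2 changes were 0.06 (SE 0.11), -0.06 (SE 0.13) and -0.14 (SE 0.14), with limma adjusted p-values of 0.763, 0.777 and 0.518. The structural gene psmb4.L was lower with xSGK1 morpholinos in both experiments, at 1559 and 1242 against 2230 and 1418 with the control morpholino, a log2 change of -0.35 that did not pass (SE 0.14, limma adjusted p = 0.153). The gene psmb1.S was above both controls in both xSGK1 arrays by a small amount, at 1808 and 1701 against 1636 and 1615 (log2 change 0.11, SE 0.12, limma adjusted p = 0.577).

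**Figure D2:**
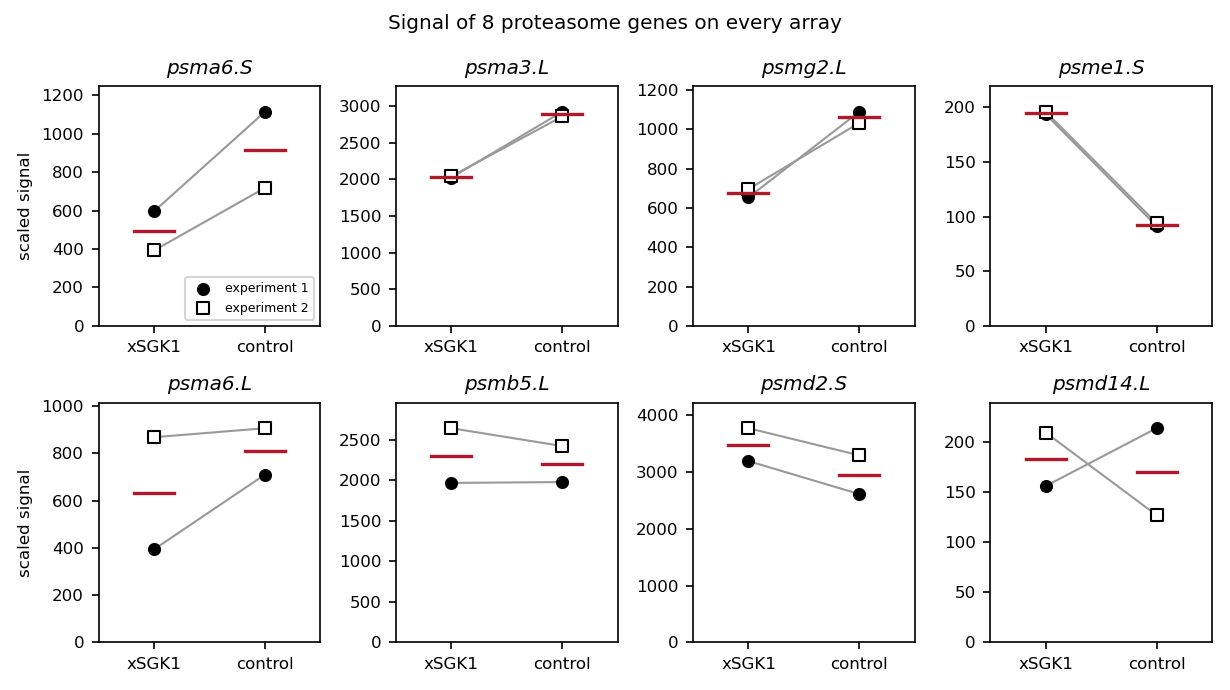
Scaled signal (y axis, linear, from 0) of 8 proteasome genes in xSGK1 and control arrays; circles are experiment 1, squares experiment 2, grey lines join arrays of the same experiment, and red bars are means of n = 2. The upper row holds the 4 genes called in the blocked fit, whose lines slope the same way in both experiments; in the lower row psma6.L differs mainly in experiment 1 and the lines of psmd14.L cross.

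Of the chaperones that assemble the alpha ring, in mammals a heterodimer of the psmg1 and psmg2 proteins starts the ring. The signal of psmg2.L (gene ID 380126) was 654 and 696 in xSGK1 arrays, against 1090 and 1033 in control arrays. Both xSGK1 values were below both controls, and the gene fell by 0.64 on the log2 scale (SE 0.14, limma adjusted p = 0.0497). This call too was lost under those 3 settings (limma adjusted p = 0.0565, 0.0544 and 0.0693). Its partner gene psmg1.L read 792 and 378 in xSGK1 arrays, against 966 and 652 in control arrays. It was lower with xSGK1 morpholinos in each experiment, but the arrays of experiment 1 were above those of experiment 2 and the change did not pass (log2 change -0.52, SE 0.17, limma adjusted p = 0.112). The gene psmg3.L went opposite ways, with 432 and 145 in xSGK1 arrays and 313 and 180 in control arrays.

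The 23 regulatory genes include psmd5.L, psmd9.S and psmd10.L, whose products are assembly chaperones of the cap's base. Among the 23 limma called 0 in either direction, where 4.09% of all probe sets rose and 3.91% fell. At an unadjusted p under 0.05 it found 1 of the 23, and 2792 of all 9251 probe sets. Their log2 changes ran from -0.32 for psmd13.S to 0.24 for psmd2.S, 11 below 0 and 12 above. The scaffold gene psmd2.S had signals of 3194 and 3773 in xSGK1 arrays, against 2612 and 3295 in control arrays. It was higher with xSGK1 morpholinos in each experiment by 1.22 and 1.15 times, and the groups overlapped (SE 0.10, limma adjusted p = 0.174). The ubiquitin receptor gene psmd4.S had 1091 and 895 in xSGK1 arrays and 953 and 772 in control arrays (log2 change 0.20, SE 0.14, limma adjusted p = 0.362). Both were higher in each experiment without passing.

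The deubiquitinase of the cap, which removes ubiquitin chains before degradation, is encoded by psmd14. Its L copy read 156 and 210 in xSGK1 arrays and 214 and 127 in control arrays, and its S copy 314 and 318 in xSGK1 arrays and 360 and 247 in control arrays. Both copies were lower with xSGK1 morpholinos in experiment 1 and higher in experiment 2. The log2 change of the L copy was -0.42 in experiment 1 and 0.66 in experiment 2, and that of the S copy was -0.19 and 0.35. The 6 ATPase-ring genes had log2 changes from -0.30 for psmc4.L to 0.12 for psmc3.L, averaged over the experiments. In 4 of the 6 the experiments gave changes of opposite sign. Within the group psmc4.L was below both controls, at 856 and 868 in xSGK1 arrays against 1170 and 964 in control arrays, without passing (limma adjusted p = 0.232).

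A lid gene illustrates how far probe sets of 1 gene can differ. The brighter probe set of psmd7.L, whose product pairs with that of psmd14, read 1081 and 1037 in xSGK1 arrays and 1004 and 957 in control arrays. A dimmer probe set of the same gene read 686 and 665 in xSGK1 arrays, against 428 and 410 in control arrays, with a log2 change of 0.67 and a limma adjusted p of 0.0506. This second probe set was singled out after its values were seen. A dimmer probe set of psmd8.L read 332 and 463 in xSGK1 arrays, against 285 and 310 in control arrays. Its log2 change was 0.38 (limma adjusted p = 0.204), against 0.05 in the brighter probe set that stands for the gene. Probe sets of 1 gene also disagreed in sign for psmd3.S in experiment 1 (log2 change 0.12 in the brighter, -0.22 in the dimmer) and for psmc5.L in experiment 2 (-0.10 in the brighter, 0.17 in the dimmer). For psmc1.L they disagreed in both experiments. In experiment 1 its brighter probe set read 514 in the xSGK1 and 499 in the control array. The dimmer one read 338 in the xSGK1 and 739 in the control array. In psmd3.S, psmc5.L and psmc1.L the brighter probe set, which stands for the gene, has a name that marks possible cross-hybridisation. The name of the dimmer one has no such mark.

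Of the alternative caps that open the core without ubiquitin, psme1.S rose. In mammals the psme1 product forms a ring with that of psme2 and is induced by interferon. The signal of psme1.S (gene ID 444210) was 194 and 196 in xSGK1 arrays, against 91.2 and 93.9 in control arrays. Neither control reached 100, so the gene passed the signal filter through the xSGK1 arrays alone and its difference was a condition of its being listed. The log2 change was 0.96 (SE 0.19, limma adjusted p = 0.0363), and the call was lost with quantile normalization and without the filter (limma adjusted p = 0.0523 and 0.0528). The probe set of its partner psme2.L had signals of 18.8 and 17.8 in xSGK1 arrays and 18.2 and 16.8 in control arrays, too dim to compare. The nuclear activator gene psme3.L differed by a log2 change of 0.00 (SE 0.10), with signals of 3625 and 3450 in xSGK1 arrays and 3665 and 3409 in control arrays. The activator gene psme4.L (896 and 1217 in xSGK1 arrays, 825 and 1107 in control arrays) did not pass either.

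The inhibitor gene psmf1.L, which encodes a protein that binds the core, had 429 and 523 in xSGK1 arrays, against 363 and 389 in control arrays. Both xSGK1 arrays were above both controls, with a log2 change of 0.32 (SE 0.16, limma adjusted p = 0.23). The gene psme3ip1.S had 506 and 511 in xSGK1 arrays and 471 and 378 in control arrays, without overlap and without passing (limma adjusted p = 0.334).

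Core and regulatory genes were then set side by side on all 4 arrays. The median log2 change was -0.18 over the 17 core genes and 0.02 over the 23 regulatory genes, a difference of -0.20. In experiment 1 the core median was -0.35 and the regulatory median 0.03, and in experiment 2 they were -0.06 and -0.05. The gap was thus -0.38 in experiment 1 and -0.01 in experiment 2. With psmd5.L, psmd9.S and psmd10.L left out of the regulatory class it was -0.38 and 0.01. Of the core genes 8 were lower with xSGK1 morpholinos in both experiments and 2 higher in both, and of the regulatory genes 7 and 7, where 31.9% of all probe sets were lower in both and 40.8% higher in both. The alpha-ring genes alone had a median of -0.33 (10 genes) and the beta-ring genes alone -0.06 (7 genes). In experiment 1 the alpha-ring median was -0.52 and the beta-ring median -0.01, and in experiment 2 they were -0.01 and -0.13. The lower alpha-ring median was thus seen in experiment 1 alone. Neither the core minus regulatory gap nor the difference between the rings was tested, because genes are not replicates. The smallest p that 2 arrays against 2 allow by exact permutation is 0.333.

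Per array, the deviation of each gene from its own 4-array mean was also taken. The median deviation of the core genes was 0.01 in xSGK1 1 and -0.16 in xSGK1 2, and 0.18 in control 1 and -0.05 in control 2. That of the regulatory genes was -0.02 and 0.05 in the xSGK1 arrays, and -0.09 and 0.06 in the control arrays. The control array of experiment 1 had the highest core median and the lowest regulatory median. Core minus regulatory, the median deviations differed by 0.03 in xSGK1 1, -0.21 in xSGK1 2, 0.28 in control 1 and -0.12 in control 2. These deviations also hold the difference between experiments, so they do not assign the gap to 1 array. Without control 1 the core minus regulatory difference in log2 change turned to 0.11, and without the other arrays in turn it ran from -0.35 to -0.09. With an array left out and no block, unequal mixes of the experiments are set against each other. These values therefore also hold part of the difference between experiments, and are not changes within an experiment.

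**Figure D3:**
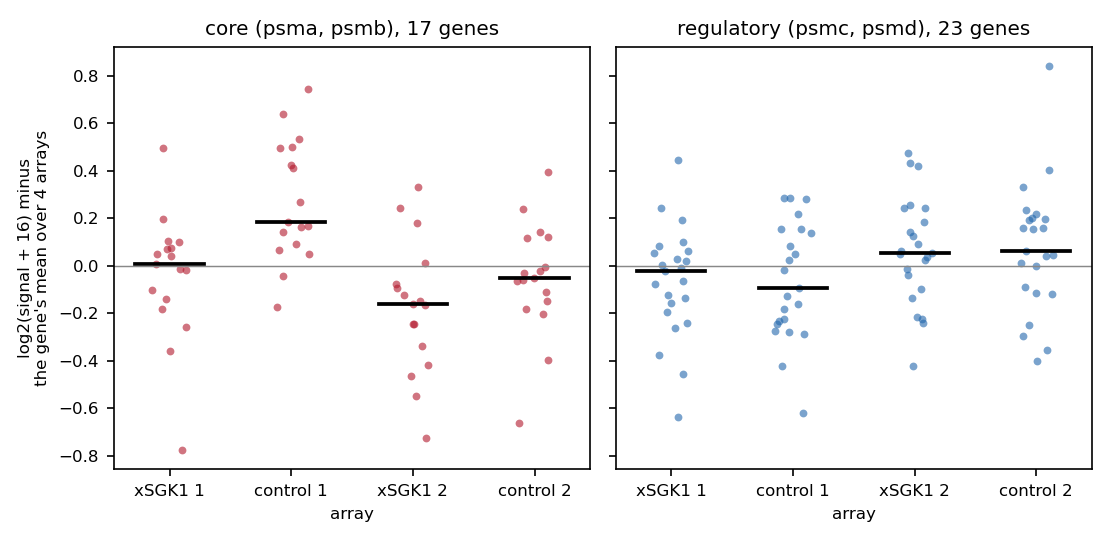
Deviation of log2(signal + 16) from each gene's mean over the 4 arrays (y axis) for the 17 core genes (left) and the 23 regulatory genes (right) on every array; each point is a gene and black bars are medians. The core median is highest in control 1 (0.18) and lowest in xSGK1 2 (-0.16), whereas the regulatory medians lie between -0.09 and 0.06.

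More proteasome genes passed the test between the 2 experiments than between the injections, as did more of all probe sets. In the limma fit with the injection as a term 15 of the 48 genes passed an adjusted p of 0.05, against 40.8% of all probe sets. In experiment 2, 8 of them were higher (20.9% of all probe sets) and 7 lower (19.9%). Both arrays of experiment 2 lay below both of experiment 1 for 18 of the 48 genes (30.2% of all probe sets) and above both for 13 (31.3%). Among the 15 genes called, 4 core genes were lower and 2 higher, and 1 regulatory gene was lower and 5 higher. The 8 higher genes include psmd9.S and psmc3.S, which passed the signal filter through experiment 2 alone, so their difference was a condition of their being listed. Only psma6.S was called in both contrasts. The genes with the largest statistics in this contrast were psmd5.L, psma4.L, psmd9.S and psmg3.L.

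The products of psmd5, psmd9 and psmd10 are chaperones of the cap's base that leave before the proteasome is complete. The signal of psmd5.L was 1661 and 1579 in the xSGK1 and control arrays of experiment 2, against 864 and 885 in those of experiment 1 (log2 change 0.88, SE 0.13, limma adjusted p = 0.00568). For psmd9.S the signals were 187 and 256 in experiment 2, against 81.8 and 83.1 in experiment 1, a log2 change of 1.26 (SE 0.20, limma adjusted p = 0.00682). As said, psmd9.S passed the signal filter through experiment 2 alone, so this difference was a condition of its being listed. In the opposite direction psmd10.L, also called gankyrin, had 403 and 371 in experiment 2, against 657 and 534 in experiment 1 (log2 change -0.60, SE 0.16, limma adjusted p = 0.0276). The base chaperone genes psmd5.L and psmd10.L thus moved opposite ways between the experiments.

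The alpha-ring gene psma4.L had 221 and 190 in the xSGK1 and control arrays of experiment 2, against 445 and 493 in those of experiment 1 (log2 change -1.13, SE 0.18, limma adjusted p = 0.00631). The core chaperone gene psmg3.L had 145 and 180 in experiment 2, against 432 and 313 in experiment 1 (log2 change -1.11, SE 0.22, limma adjusted p = 0.0128). Over the core genes the median change between experiments was -0.19, with 14 of 17 lower in experiment 2, and over the regulatory genes it was 0.14, with 11 of 23 lower. Of all probe sets 49.4% were lower in experiment 2. The core minus regulatory difference was -0.33. It was -0.23 with psmd5, psmd9 and psmd10 left out of the regulatory class. With a signal filter of 300, which leaves out psmd9.S and psmc3.S among others, it was also -0.23. It was -0.13 without probe sets whose name marks possible cross-hybridisation, where some genes were dropped and others read from another probe set. With either control array left out the difference was -0.185, a value that then rests on the xSGK1 arrays alone. With either xSGK1 array left out it was -0.530, which rests on the control arrays alone.

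**Figure D4:**
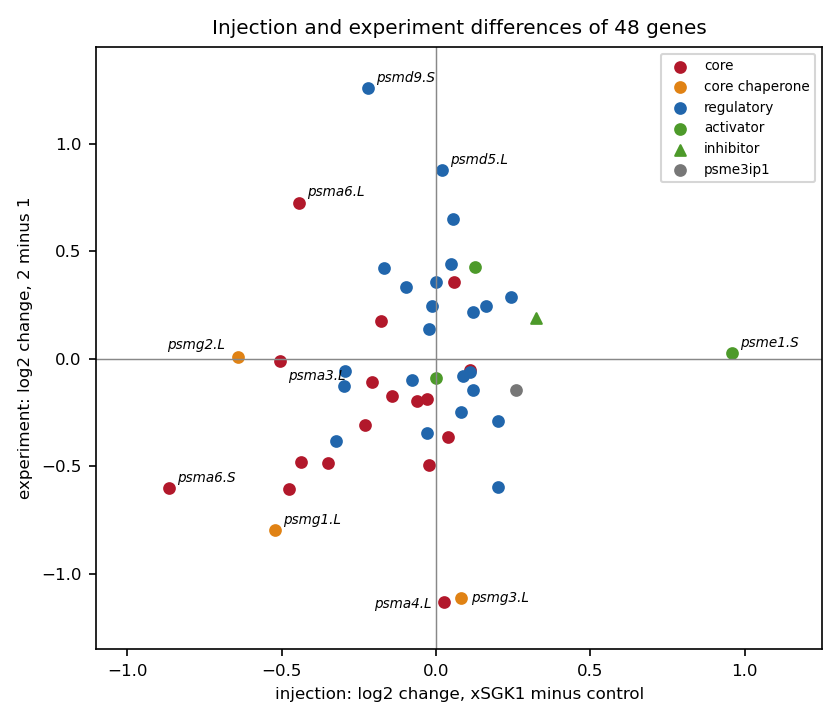
Log2 change between injections (xSGK1 minus control, x axis) and between experiments (2 minus 1, y axis) of the 48 proteasome genes, coloured by class; both are averages over the same 4 arrays. The genes psme1.S, psmg2.L and psma3.L differ between injections and hardly between experiments, whereas psmd9.S, psmd5.L, psma4.L and psmg3.L differ mainly between experiments.

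Both the L and the S copy were measured for 10 symbols. The injection changes of the copies had the same sign in 8 of these pairs and the experiment changes in 5, and transcripts of the copies can cross-hybridise. Among the 8, psmc5 had a log2 change of -0.08 for the L copy and only -0.00019 for the S copy. The copies of psma6 were lowest in different arrays. Against the S copy described above, psma6.L had 394 and 869 in xSGK1 arrays and 711 and 907 in control arrays, so it was lower in the xSGK1 array of experiment 1 and nearly level in experiment 2 (log2 change -0.44, SE 0.21, limma adjusted p = 0.218). Between experiments psma6.L was higher in experiment 2 by 0.73 on the log2 scale, while psma6.S was lower there by a log2 change of -0.60, and both passed (limma adjusted p = 0.0379 and 0.0209). The copies of psma7 were both lower with xSGK1 morpholinos in experiment 1, and in experiment 2 the log2 change was -0.50 for the L and 0.06 for the S copy.

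In psma1 the L copy had 150 and 226 in xSGK1 arrays and 226 and 196 in control arrays, so it too was lower in experiment 1 alone, unlike the S copy. The psmb2 copies differed by -0.24 in their log2 change (L minus S), with -0.21 for psmb2.L and 0.04 for psmb2.S. Those of psmd1, a scaffold of the base, had log2 changes of -0.17 for the L and 0.09 for the S copy, and those of the lid gene psmd6 had -0.30 and -0.01. For psmc3 the L minus S difference was 0.44 in experiment 1 and -0.31 in experiment 2, and for psmd14 it was -0.23 and 0.31, so these copies differed in opposite ways. No copy-specific difference was tested.

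Genes that act before or beside the proteasome were read from fixed lists. Of 7 measured proteasome factors without a psm symbol 1 rose and 0 fell, where 4.09% of all probe sets rose and 3.91% fell, and their median log2 change was 0.23. The one that rose was akirin2.S, whose human protein brings proteasomes into the nucleus, with 3849 and 3994 in xSGK1 arrays, against 2450 and 2527 in control arrays (log2 change 0.65, SE 0.10, limma adjusted p = 0.0264). Both xSGK1 arrays were above both controls. Its paralog akirin1.L had 2523 and 2503 in xSGK1 arrays and 1896 and 2117 in control arrays (limma adjusted p = 0.126). The S copy, akirin1.S, was higher with xSGK1 morpholinos in experiment 1 and lower in experiment 2. It had 4989 and 4299 in xSGK1 arrays and 4340 and 4415 in control arrays (limma adjusted p = 0.628). The maturation factor gene pomp.S had 774 and 583 in xSGK1 arrays, against 658 and 418 in control arrays, a change that did not pass.

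Among 18 genes of ubiquitin-conjugating (E2) enzymes 2 rose and 1 fell, again where 4.09% of all probe sets rose and 3.91% fell. The gene of the endoplasmic reticulum enzyme ube2j2.L had 523 and 1168 in xSGK1 arrays, against 226 and 486 in control arrays (log2 change 1.2, SE 0.15, limma adjusted p = 0.0232). The gene ube2v1.L, whose product builds signalling chains with ube2n, had 1153 and 1116 in xSGK1 arrays, against 747 and 681 in control arrays (log2 change 0.66, SE 0.14, limma adjusted p = 0.0421). The gene ube2s.S, whose enzyme extends chains with the anaphase-promoting complex, was lower, with 1135 and 796 in xSGK1 arrays and 1617 and 1349 in control arrays (log2 change -0.63, SE 0.14, limma adjusted p = 0.0493). In these 3 genes the xSGK1 signal lay on the same side of the control in both experiments.

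The other lists of the pathway held no call: 0 of 3 genes of ubiquitin-activating (E1) and related enzymes, 0 of 7 deubiquitinase, shuttle and ligase genes that act at the proteasome, 0 of 8 genes of the p97 segregase, 0 of 5 regulators of proteasome gene transcription and 0 of 13 cullin-RING and anaphase-promoting complex genes passed in limma in either direction. In the same fit 8.0% of all probe sets were called. At an unadjusted p under 0.05 these lists held 1, 1, 0, 0 and 2 genes in the same order. At that level limma found 2792 of all 9251 probe sets. The ligase gene ube3c.S came nearest, at 415 and 735 in xSGK1 arrays against 200 and 490 in control arrays (log2 change 0.78, SE 0.18, limma adjusted p = 0.0520). The medians of these lists ran from -0.03 for the p97 list to 0.14 for the cullin-RING list.

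Other large complexes give a scale for these medians. The CCT chaperonin, which folds tubulin and actin, had a median of -0.32 in experiment 1 and -0.01 in experiment 2 over 12 genes. In limma 0 of them passed, where 8.0% of all probe sets did. At an unadjusted p under 0.05 limma found 2 of the 12, and 2792 of all 9251 probe sets. The CCT genes tcp1.L and tcp1.S had log2 changes of -0.51 and -0.46 (limma adjusted p = 0.0520 and 0.0607). The 70 cytoplasmic ribosomal protein genes had medians of -0.27 and -0.31, and 6 fell (3.91% of all probe sets). The 60 genes of the respiratory chain and ATP synthase had medians of 0.13 and 0.14, with 4 that rose (4.09% of all probe sets) and 1 that fell. On the arrays the median deviations of the ribosomal genes were 0.14 and -0.39 with xSGK1 morpholinos and 0.39 and -0.07 with the control morpholino. Control 1 was highest and xSGK1 2 lowest there, as among the core proteasome genes. Those of the CCT genes were -0.18 and -0.03 with xSGK1 morpholinos and 0.13 and 0.03 with the control morpholino, lowest in xSGK1 1. All these deviations also hold the difference between experiments. Differences between these lists and the proteasome classes were not tested.

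**Figure D5:**
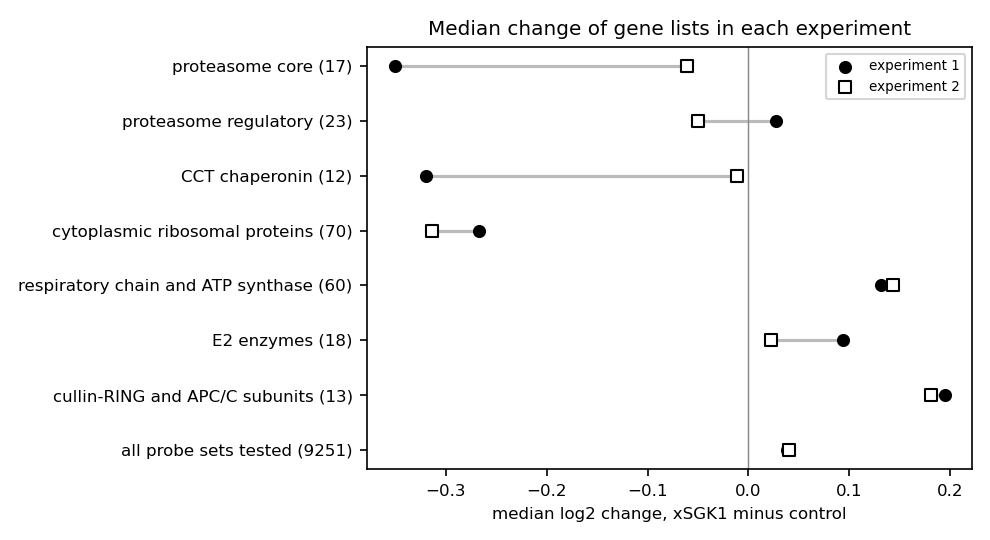
Median log2 change (xSGK1 minus control, x axis) of proteasome classes and other gene lists in experiment 1 (filled circles) and experiment 2 (open squares), with the number of genes in brackets. The core proteasome and CCT medians are -0.35 and -0.32 in experiment 1 and -0.06 and -0.01 in experiment 2, whereas the ribosomal medians are alike in both.

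The immunoproteasome genes psmb8.L and psmb9.S were under the filter, as were psma3.S, psmd2.L and psme2.L. Nearest to the threshold of 100 were psmc3.S, with a mean signal of 114, and psmb8.L, with 85.1. The signal of psmb8.L was 21.4 and 191 in xSGK1 arrays, against 20.4 and 107 in control arrays, so it was high in experiment 2 with either injection. A further 7 probe sets annotated to several genes were set aside.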

How the data were processed

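Per the submitters' processing notes, MAS5 and GCOS were used, and the series text names GCOS 1.4. What the authors deposited is 1 signal intensity per probe set and array, on a linear scale. Scaling had been applied before deposit, since the 2% trimmed mean was 500.05 or 500.06 on each array. Median signals were 161 to 174, and 9051 to 9210 probe sets per array reached 100. Precision is limited by the 4 arrays, since no depth applies to intensities.

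Each array was brought to a trimmed mean of 500 and transformed to log2(signal + 16). Of 15611 probe sets, 120 controls were dropped, then those averaging under 100, leaving 9251. Symbols are the platform annotation's, and all 48 proteasome symbols matched the RefSeq table of Xenopus_laevis_v10.1. Coordinates are not printed, since the sources do not tie the array to a build.

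Testing used limma 3.58.1 (R 4.3.3) with an intensity trend, two-sided. Earlier checks on simulated data covered the size and sign of changes and set no limit on false calls. The fit without a block was the planned one. Replicate numbers were taken as experiment numbers, since the series text describes 2 independent experiments with both injections in each. The differences between experiments in xSGK1 and in control arrays had a Pearson correlation of 0.838 over probe sets (pairing was accepted above 0.1), so blocked values stand beside it. In limma the variance of each probe set was moderated toward a trend over all probe sets tested. The standard errors therefore draw on other probe sets as well as on the gene's own arrays. The p-values measure only the spread between these arrays, pooled in this way, which may be partly technical. A planned count of promoter motifs was not made, and no sequence is used here. Genes chosen for full values were the 6 largest rises and falls, the catalytic and ubiquitin-facing subunits and the 4 largest experiment differences. Both copies of genes measured as L and S, and up to 3 genes per list, were also chosen. Signals of some of these genes are not printed here. Any other gene was named after its values were seen. The genes and lists were chosen with earlier results of these data known. The offset, the filter, the normalization, the variance trend and the choice of probe set were each varied, and each array was left out in turn. Figures used matplotlib 3.10.9.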

Additional observations from a re-analysis of the deposited data

Results flagged for a closer look

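The 2 experiments gave log2 changes (xSGK1 minus control) of opposite sign for 18 of the 48 genes, against 2522 of all 9251 probe sets. Of the genes chosen for full values 13 did so, and they are given here. The others, psma2.L, psma5.S, psmc1.L, psmd3.S and psme3.L, were outside that choice. With 1 array of each injection per experiment the differences were not tested. Lower with xSGK1 morpholinos in experiment 1 and higher in experiment 2 were 8 genes. In the alpha ring the change of experiment 2 exceeded that of experiment 1 by 0.73 for psma1.L (-0.54 in experiment 1, 0.19 in experiment 2), by 0.58 for psma7.S (-0.52, 0.06) and by 0.34 for psma4.L (-0.14, 0.20). Among the regulatory genes the excess was 1.08 for psmd14.L (-0.42, 0.66), 0.54 for psmd14.S (-0.19, 0.35), 0.32 for psmc3.S (-0.10, 0.21) and 0.10 for psmd5.L (-0.03, 0.07). The catalytic gene psmb5.L differed by 0.13 (-0.01, 0.12) in the same sense.

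The opposite pattern was seen in psmg3.L, where experiment 2 minus experiment 1 was -0.73 (0.45 in experiment 1, -0.29 in experiment 2). It was -0.44 for psmc3.L (0.34, -0.10), -0.26 for psmd6.S (0.12, -0.14), -0.22 for psmc5.S (0.11, -0.11) and -0.15 for psmb6.L (0.01, -0.14). The median over the regulatory genes also changed sign, by -0.08 (0.03 in experiment 1, -0.05 in experiment 2), untested.

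Outside the genes compared, the immunoproteasome gene psmb8.L, under the signal filter, reached 191 in the xSGK1 array of experiment 2, against 21.4 in that of experiment 1 and 107 and 20.4 in the matching control arrays.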

How the results depend on the processing

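With the replicate block limma called 740 probe sets in place of 0, among them the 4 proteasome genes named, and changed no other proteasome gene's call. The block gave 524 probe sets with quantile normalization and 1136 with offset 64. Of the 48 genes the block called 1 with quantile normalization and 4 with offset 64. Alternatives chosen after seeing the data gave 4 with offset 1, 3 with a filter of 300, 1 without a filter and 2 without the trend. psma6.S was called in each of these 6 blocked settings, with adjusted p from 0.0154 to 0.0431. The calls of psma3.L, psmg2.L and psme1.S were lost in 2 or 3 of them, and the filter of 300 left psme1.S out. Without the block, leaving out 1 array gave 0 to 110 probe sets (110 without xSGK1 1, 7 without xSGK1 2) and 0 of the 48 genes. Leaving out an array from a fit with the block or of the experiment contrast leaves too few degrees of freedom for a test.

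Without the injection term 58 probe sets and 0 of the 48 genes differed between experiments, in place of 3775 and 15, and without the trend 9 genes did. The median injection change of the 48 genes was -0.0331 with quantile normalization, with or without the block, and 0.00034 without suffixed probe sets. Leaving out an array moved it from -0.12 to -0.0088, the core median from -0.27 to -0.0496, the regulatory median from -0.16 (without control 1) to 0.0804 (-0.0648 without xSGK1 2), and core minus regulatory from -0.35 to 0.11 (without control 1). The median experiment change ran from -0.0933 to -0.0101. Turned changes were -0.0323 for psma4.L and -0.0137 for psmb2.S with quantile normalization and 0.00042 for psmc5.S with offset 1. Leaving out an array turned the sign of uncalled genes, with changes from -0.45 to 0.092 for psma1.L, -0.62 to 0.68 for psma4.L, -0.998 to 0.11 for psma6.L, -0.53 to 0.069 for psma7.S, -0.15 to 0.22 for psmb2.S, -0.15 to 0.27 for psmb5.L, -0.20 to 0.072 for psmb6.L, -0.096 to 0.34 for psmc3.L, -0.35 to 0.46 for psmc3.S and -0.23 to 0.23 for psmc5.S. They ran from -0.41 to 0.077 for psmd1.L, -0.14 to 0.54 for psmd10.L, -0.22 to 0.46 for psmd14.L, -0.18 to 0.34 for psmd14.S, -0.45 to 0.48 for psmd5.L, -0.20 to 0.18 for psmd6.S, -0.18 to 0.27 for psmd8.L, -0.95 to 0.51 for psmd9.S and -0.66 to 0.82 for psmg3.L. Injection changes with an array left out came from unblocked fits, so unequal mixes of the experiments were set against each other. They therefore also hold part of the difference between experiments. Any other cause was not tested. No detection calls were used, so the dimmest genes are the least certain.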
